A study of Mus musculus with 36 samples.

Results

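The genes described here are 8 genes of meiotic recombination, chosen by name: Dmc1, Mnd1, Psmc3ip, Meiob, Spata22, Msh4, Msh5 and Mlh3. All 8 were found once in each table, among 56893 gene symbols listed for primordial germ cells (PGCs) and 55492 listed for gonads. The rule that lists them uses no measured value.

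Bulk RNA-seq was performed on 36 libraries in 12 groups of 3. PGCs, sorted as Oct4-EGFP+ cells from pooled fetuses, gave 30 libraries: E12.5 (sex not determined), and female and male fetuses of E13.5 and of E16.5. Whole female gonads at E13.5, pooled before extraction, gave the other 6. In the intrauterine hyperglycaemia (IUHG) groups the dams, at day 3.5 of gestation, had received 120 mg/kg of streptozotocin (STZ, a toxin of pancreatic beta cells), and their blood glucose was above 14 mM by day 6.5. For control dams no STZ injection is described. Dams were ICR mice. The labels give the genotype of every group as wild type, and PGC groups carried the Oct4-EGFP reporter that the sort needs. STZ and high glucose came together in every IUHG group, so their parts cannot be told apart in these libraries. The paper also counted PGCs of fetuses whose STZ-injected dams had no raised glucose, and cultured PGCs in high glucose. Neither is among these libraries. The labels call the libraries of a group biological replicates. As fetuses were pooled, p-values measure the spread between pools.

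Meiotic recombination begins when a chromosome is cut and its ends are resected to single-stranded DNA. DMC1, the meiosis-specific recombinase, coats that DNA and carries out strand exchange with the homologous chromosome, and the MND1 and PSMC3IP (also called HOP2) proteins form a complex that stimulates it. MEIOB and SPATA22 form another complex on single-stranded DNA that is needed to complete repair. MSH4 and MSH5 form a clamp that stabilises recombination intermediates, and MLH3 is part of the nuclease that resolves them into crossovers. Female germ cells start this programme in the fetal ovary, whereas male germ cells of the same age enter mitotic arrest and start meiosis only after birth.

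TPM (a transcript level per length, with an equal sum for every library) was tested as log2(TPM + 1) with limma. A gene was tested where its mean TPM was at least 1 in a compared group. In PGCs it was called when its Benjamini-Hochberg adjusted p was below 0.01 and its difference exceeded 1 on the log2 scale, and in gonads when adjusted p was below 0.05 and the difference was at least 1. Differences of differences were called at adjusted p below 0.01. Aligned bases per library ranged from 3.25 to 8.32 gigabases in PGCs and from 3.89 to 4.95 gigabases in gonads. The summed TPM of 7 pan-germ genes was at least 1790 in every PGC library, and the 4 Y-linked genes summed to at most 0.601 TPM in female PGC libraries. In the E12.5 pools the Y-linked sum was between 129.6 and 212.1 TPM, so they held male cells, and it did not overlap between controls and IUHG. Of the gonad libraries 1 control held Y-linked transcripts, and the Sertoli markers summed to 243 TPM there against at most 47.7 TPM in the other 5 libraries. Gonad differences of Meiob, Spata22 and Msh5, list counts, marker sums and levels relative to germ cell genes are given with and without it. Other gonad values are given over all libraries.

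In control PGCs, 5 of the 8 genes were higher in E13.5 females than at E12.5, where 18.5% of all tested genes were called higher. The E12.5 control pools were not sexed and held male cells (Y-linked sum from 194.0 to 212.1 TPM). Stage and sex therefore cannot be told apart in this comparison. Dmc1 (chr15:79445698-79489309, minus strand, as listed with the PGC files, for which the study's methods name Mm39) had 10.3, 5.62 and 9.09 TPM at E12.5 and 92.3, 92.8 and 91.4 TPM at E13.5. All female libraries were far above all E12.5 libraries, and mean TPM was 11.1 times higher (log2 difference 3.36, SE 0.19, limma adjusted p = 6.2e-07). Meiob (chr17:25023263-25058762, plus strand) went from 5.90, 4.43 and 2.94 TPM to 89.2, 97.3 and 91.8 TPM, 21.0 times higher on means (log2 difference 4.15, SE 0.19, adjusted p = 2e-07). Its partner Spata22 (chr11:73220567-73236870, plus strand) was listed at 0 in all 3 libraries at E12.5 and had 12.8, 10.3 and 17.5 TPM in E13.5 females (adjusted p = 1.1e-06). Msh4 (chr3:153562786-153611775, minus strand) rose from a mean of 1.06 ± 0.32 TPM to 13.2 ± 2.0 TPM (SD, n = 3 here and below; log2 difference 2.78, SE 0.21). Msh5 (chr17:35247581-35265702, minus strand) rose from 2.13 ± 0.71 TPM to 17.4 ± 1.4 TPM (log2 difference 2.58, SE 0.22).

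Mnd1, Psmc3ip and Mlh3 followed other courses. Mnd1 (chr3:83995240-84063093, minus strand) already stood at 85.6 ± 3.9 TPM at E12.5 and was at 134.9 ± 19.7 TPM in E13.5 females, a log2 difference of 0.64 (SE 0.11) that was under the fold threshold. Psmc3ip (chr11:100982649-100986262, minus strand) was at 75.7 ± 5.4 and 82.6 ± 8.4 TPM, and Mlh3 (chr12:85281294-85317373, minus strand) at 3.87 ± 0.40 and 6.04 ± 1.07 TPM. A pseudogene, Mnd1-ps, was listed with at most 3.43 TPM in any PGC library. Per the study's methods PGC reads were kept only where they mapped uniquely. Reads shared with the pseudogene would then count for neither gene. Psmc3ip did not keep its direction, with a log2 difference of 0.12 that was -0.17 after median-of-ratios scaling.

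**Figure D1:**
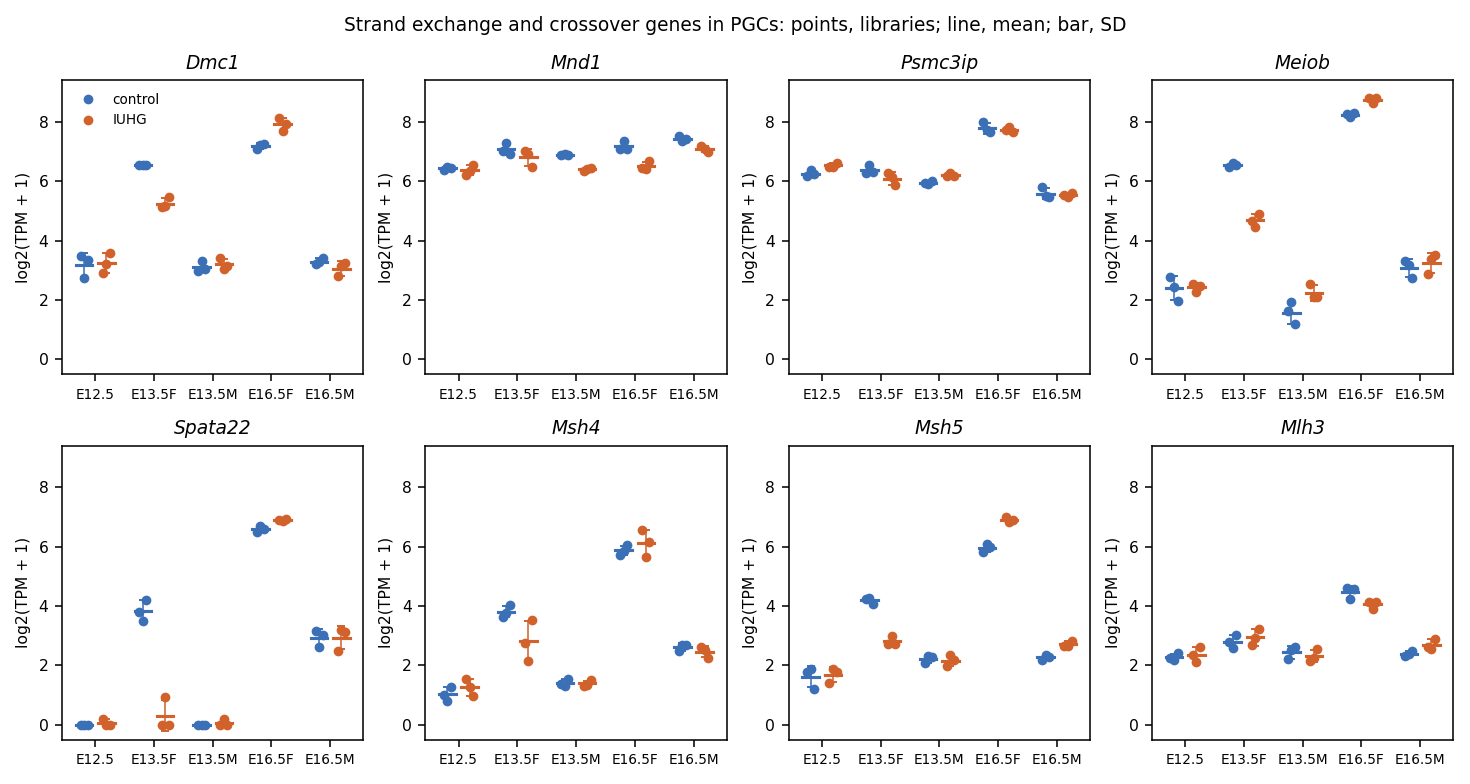
Level of each of the 8 genes in PGCs as log2(TPM + 1) by stage and sex, with 3 libraries per group as points, the mean as a line and the SD as a bar, control in blue and IUHG in orange. Dmc1, Meiob, Spata22, Msh4 and Msh5 stood higher in female than in male control PGCs at both later stages, whereas Mnd1 had between 73.3 and 183.0 TPM in every library.

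Between E13.5 and E16.5 in control females 6 of the 8 genes rose, where 18.4% of all tested genes were called higher. Spata22 rose to 88.4, 102.8 and 94.99 TPM, 7.04 times its E13.5 mean (log2 difference 2.75, SE 0.19). Msh4 reached 58.1 ± 6.5 TPM and Msh5 reached 61.5 ± 5.6 TPM (log2 differences 2.06 and 1.76). Meiob reached 301.6 ± 17.7 TPM, the highest mean among the 8 genes in control PGCs. Psmc3ip (220.2 ± 28.1 TPM, log2 difference 1.40) and Mlh3 (21.3 ± 2.9 TPM, log2 difference 1.67) were first called higher in this interval. Dmc1 was at 144.9 ± 8.8 TPM, a log2 difference of 0.65 under the fold threshold. Mnd1 was at 144.3 ± 15.0 TPM, and its difference of 0.10 was -0.16 after median-of-ratios scaling and -0.044 on FPKM.

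In males none of the 7 genes tested was called between E12.5 and E13.5 by limma, where 16.2% of all tested genes were called in either direction. At an unadjusted p below 0.05, 2 were higher and 2 lower, where 9474 of 14531 tested genes passed in either direction. Meiob was at 2.07, 2.81 and 1.26 TPM in E13.5 males against 5.90, 4.43 and 2.94 TPM at E12.5 (log2 difference -0.83, SE 0.25, adjusted p = 0.017). Without the E12.5 control library of replicate 3 it was called lower (log2 difference -1.04, limma adjusted p = 0.0067). These comparisons and those of females share the E12.5 control libraries, whose cells were not sexed. Between E13.5 and E16.5 in control males 3 of 8 genes were called higher, close to the 38.3% of all tested genes. Spata22 was listed at 0 in all 3 libraries at E13.5 and had 7.89, 5.16 and 7.22 TPM at E16.5. Meiob rose from 2.05 ± 0.77 to 7.57 ± 1.65 TPM and Msh4 from 1.68 ± 0.23 to 5.18 ± 0.52 TPM. The median over all genes tested in this interval was 0.62 on the log2 scale, and with quantile normalization 1 member, Spata22, was called. On FPKM and after median-of-ratios scaling Meiob and Spata22 were called.

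Female PGCs had more of these transcripts than male PGCs at both stages. At E13.5, 5 of 8 genes were higher in females, where 20.4% of all tested genes were. The largest difference among them was that of Meiob, 4.97 on the log2 scale (SE 0.18). At E16.5, 7 of 8 were higher, where 22.9% of all tested genes were. Meiob (301.6 against 7.57 TPM, log2 difference 5.16) and Dmc1 (144.9 against 8.83 TPM, log2 difference 3.89) had the largest differences. Mnd1 was the exception, with 135.1, 161.6 and 136.2 TPM in females and 183.0, 160.8 and 171.0 TPM in males at E16.5. Its groups overlapped, and the log2 difference was -0.25 (SE 0.10, adjusted p = 0.045).

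Ordered by mean TPM over the 10 PGC groups, Dmc1, Meiob, Spata22 and Msh5 had their highest level in IUHG females at E16.5, followed by control females at E16.5 and control females at E13.5. Libraries of those 3 groups did not overlap with one another for any of these 4 genes. The lowest 6 groups for Dmc1, from 7.40 to 8.83 TPM, were all E12.5 or male and each overlapped with its neighbour. For Msh4 the E16.5 female groups came first and overlapped. Mlh3 was highest in control females at E16.5, followed by IUHG females of that age at 15.6 ± 1.5 TPM, and its other 8 groups, from 3.87 to 6.80 TPM, each overlapped with the next. Every neighbour in the order of Mnd1 overlapped, from 82.2 to 171.6 TPM.

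The start regions of the genes are shown because they set 3 genes that were called higher in female than in male control PGCs beside Mnd1, which was not. RefSeq windows from 250 bases before to 50 bases after a gene start (GRCm38.p6) were found for 7 of the 8 genes, all but Meiob. They were searched on both strands for an E-box (CACGTG), for the letters CNCCTCAG, reported for promoters bound by STRA8, the retinoic acid-induced regulator of meiotic entry, and for the E2F-type letters GCGGGAA. These were held by 7.15%, 7.94% and 4.60% of all 32851 windows. The 3 motifs share no overlap in the windows printed, and capitals mark matches:
Spata22 (chr11:73329491-73329790, plus strand): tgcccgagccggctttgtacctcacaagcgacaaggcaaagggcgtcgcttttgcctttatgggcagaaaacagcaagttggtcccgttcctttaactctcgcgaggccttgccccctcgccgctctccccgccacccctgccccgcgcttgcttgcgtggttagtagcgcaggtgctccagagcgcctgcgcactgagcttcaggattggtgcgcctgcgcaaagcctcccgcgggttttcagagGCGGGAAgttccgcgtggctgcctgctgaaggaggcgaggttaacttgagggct
Msh5 (chr17:35046573-35046872, minus strand): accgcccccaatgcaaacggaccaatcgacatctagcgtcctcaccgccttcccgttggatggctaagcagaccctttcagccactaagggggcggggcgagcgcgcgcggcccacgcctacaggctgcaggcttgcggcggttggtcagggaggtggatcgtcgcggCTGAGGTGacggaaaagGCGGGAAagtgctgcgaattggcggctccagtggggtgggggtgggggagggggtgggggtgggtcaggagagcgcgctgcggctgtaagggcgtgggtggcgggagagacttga
Dmc1 (chr15:79605060-79605359, minus strand): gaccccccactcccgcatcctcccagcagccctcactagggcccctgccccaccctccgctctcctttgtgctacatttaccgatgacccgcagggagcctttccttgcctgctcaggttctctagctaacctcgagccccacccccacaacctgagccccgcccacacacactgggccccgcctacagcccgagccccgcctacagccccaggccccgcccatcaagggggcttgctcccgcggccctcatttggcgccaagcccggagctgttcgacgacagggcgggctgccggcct
Mnd1 (chr3:84155737-84156036, minus strand): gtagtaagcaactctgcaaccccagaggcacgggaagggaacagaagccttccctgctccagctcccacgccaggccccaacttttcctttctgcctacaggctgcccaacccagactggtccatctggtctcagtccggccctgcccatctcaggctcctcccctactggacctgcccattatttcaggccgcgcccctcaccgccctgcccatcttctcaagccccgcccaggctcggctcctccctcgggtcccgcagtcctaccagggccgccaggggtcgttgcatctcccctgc
Spata22 held the E2F-type letters from base -4 to base 3 around its start, counting the start as 1 with no base 0. In the window of Msh5 the same letters lay from base -65 to -59, and the reverse complement of the STRA8-type letters lay from base -82 to -75. Dmc1 and Mnd1 held none of the 3 motifs, nor did Psmc3ip, Mlh3 or Msh4. Only the exact letters given were searched for, so other forms of such sites may be present. G and C made up 69.0% of the window of Dmc1, 67.3% of that of Msh5, 65.0% of that of Mnd1 and 62.7% of those of Spata22 and Psmc3ip, but 51.7% of that of Mlh3 and 43.3% of that of Msh4, against a median of 52.7% over all windows. The window of Msh4 (chr3:153904842-153905141, minus strand) lay inside the gene span listed for gonads, which reaches base 153906138. Its values do not describe the outermost start of that span.

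The question of the IUHG comparison is whether the higher levels seen in control females were also seen in the IUHG groups. In E13.5 female PGCs 2 of the 8 genes, Meiob and Spata22, were called lower in IUHG, where 0.435% of all tested genes were. No member was called higher. Meiob had 89.2, 97.3 and 91.8 TPM in controls and 24.5, 21.0 and 29.0 TPM in IUHG libraries. The groups lay far apart, with a mean 3.73 times higher in controls (log2 difference -1.87, 95% interval -2.32 to -1.42, limma adjusted p = 0.0026). Spata22 had 12.8, 10.3 and 17.5 TPM in controls, whereas it was listed at 0 in 2 IUHG libraries and had 0.895 TPM in the other (log2(TPM + 1) difference -3.53, 95% interval -4.37 to -2.68, adjusted p = 0.0026). In control PGCs of E12.5 it was listed at 0 as well.

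Further members lay below controls without meeting both thresholds. Dmc1 had 92.3, 92.8 and 91.4 TPM in controls and 33.6, 34.5 and 43.3 TPM in IUHG, 2.48 times lower on means (log2 difference -1.30, 95% interval -1.72 to -0.87, adjusted p = 0.011). Msh5 had 18.1, 18.3 and 15.9 TPM in controls and 5.52, 6.92 and 5.66 TPM in IUHG (log2 difference -1.39, 95% interval -1.95 to -0.84, adjusted p = 0.022). Msh4 had 11.49, 12.6 and 15.3 TPM against 5.71, 3.39 and 10.6 TPM (log2 difference -1.01, 95% interval -1.83 to -0.19, adjusted p = 0.15). For 6 of the 8 genes every IUHG library was below every control library, where 13.2% of all tested genes were so. The sixth was Psmc3ip, with 77.3, 92.3 and 78.3 TPM against 75.7, 70.0 and 57.1 TPM (log2 difference -0.29, 95% interval -0.72 to 0.14).

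Mnd1 and Mlh3 overlapped between the groups at E13.5 in females. Mnd1 had 129.6, 156.7 and 118.4 TPM in controls and 128.2, 118.7 and 89.0 TPM in IUHG (log2 difference -0.27, 95% interval -0.73 to 0.18). Mlh3 had 5.95, 5.01 and 7.15 TPM against 5.37, 6.56 and 8.45 TPM (log2 difference 0.14, 95% interval -0.52 to 0.80). The median difference over the 8 genes was -1.15, and over all tested genes it was 0.14. Median-of-ratios scaling brought the latter to 0.0049 and the difference of Mlh3 to -0.0016, and it was also below 0 on FPKM and with quantile normalization.

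How many members were called depended on single libraries. Without any 1 of the 3 control libraries no member was called by limma, and adjusted p was then between 0.035 and 0.041 for Meiob and between 0.024 and 0.033 for Spata22. Without IUHG replicate 2 only Spata22 was called (Meiob adjusted p = 0.018). Without IUHG replicate 3 Dmc1, Meiob, Spata22, Msh4 and Msh5 were all called lower. In that setting 428 of 15850 tested genes were called in either direction, against 85 of 16539 with all libraries. Without a control library between 1 and 9 genes were called over all genes, and without IUHG replicate 2 it was 20. The differences themselves moved little under these omissions, from -1.98 to -1.76 for Meiob and from -3.83 to -3.34 for Spata22.

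**Figure D2:**
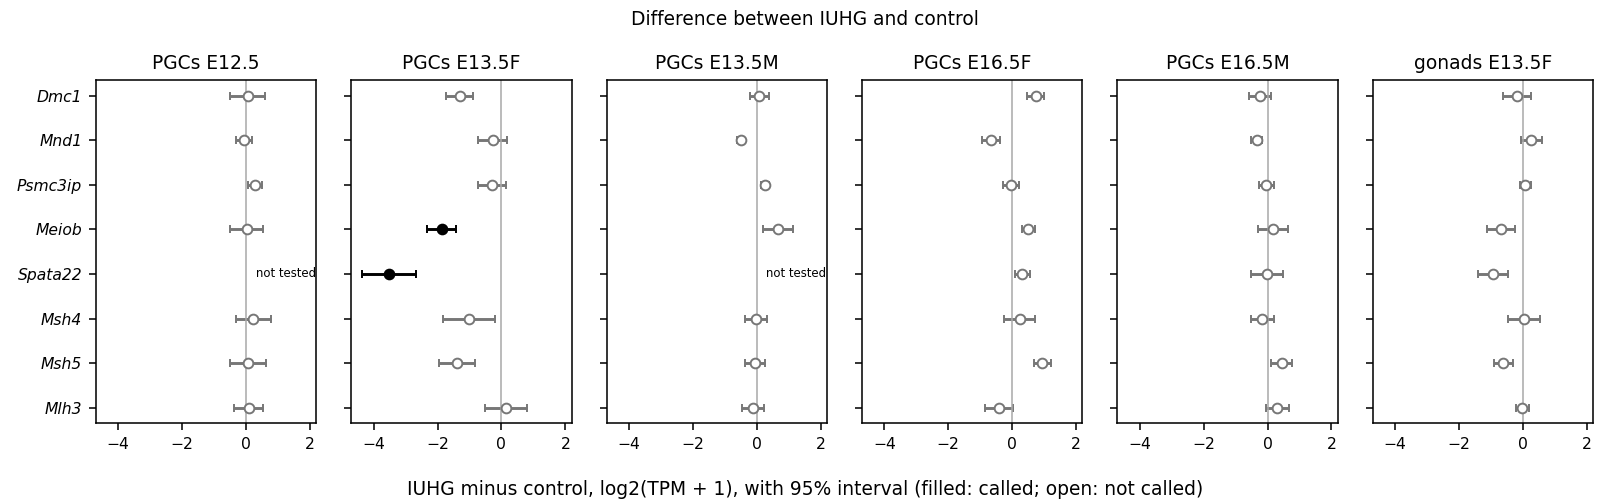
Difference between IUHG and control in log2(TPM + 1) for each of the 8 genes (rows) with its 95% interval, in the 5 PGC comparisons and in gonads (panels). Filled points were called, open points were not. Meiob and Spata22 in E13.5 female PGCs are the filled points, and in E16.5 female PGCs Dmc1, Meiob, Spata22 and Msh5 lie to the right of 0.

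The other genes of the same steps were followed in E13.5 female PGCs through lists. Of 19 strand exchange partners none was called by limma, and at an unadjusted p below 0.05 there were 1 higher and 4 lower. Over all genes 3873 of 16539 passed that cut in either direction. Hsf2bp, which brings BRCA2 to meiotic breaks, came nearest (220.4 to 104.7 TPM, log2 difference -1.07, adjusted p = 0.012), followed by Sfr1, an auxiliary factor of strand exchange (log2 difference -0.45, adjusted p = 0.11). The median of this list was -0.014. Of 17 crossover partners 1 was called lower, Rnf212, a ligase that stabilises the MSH4 and MSH5 clamp at crossover sites (26.0 to 5.24 TPM, log2 difference -2.12, adjusted p = 0.004), and the list median was -0.20. None of the 6 MutS and MutL relatives that act in mismatch repair was called by limma, with a median of 0.45 and 1 higher and 0 lower at an unadjusted p below 0.05. Msh6 had a log2 difference of 1.00 (adjusted p = 0.14). IUHG replicate 3 stood apart here, the list summing to 812.0 TPM in it, to 374.5 and 457.4 TPM in the other IUHG libraries and to between 303.0 and 413.3 TPM in controls. Without it the list median was 0.20, with 1 higher and 2 lower at an unadjusted p below 0.05, and Msh6 had 0.55 (limma adjusted p = 0.071). Of 7 break formation genes 3 were called lower, namely Prdm9, the methyltransferase that places meiotic breaks (29.0 to 5.38 TPM), Mei1 (14.6 to 1.38 TPM) and Iho1 (30.9 to 5.23 TPM), both needed for break formation. The median of that list was -1.42. Leaving out IUHG replicate 3 raised the calls over all genes from 85 of 16539 to 428 of 15850, in either direction. Without IUHG replicate 3 the calls were 1 of the strand exchange partners (Hsf2bp, limma adjusted p = 0.00094), 5 of the crossover partners (Rnf212, Cntd1, Tex11, Hfm1 and Shoc1) and 4 of the break formation genes (Ankrd31 besides the 3 above), all lower, with list medians of -0.29, -0.38 and -1.75.

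**Figure D3:**
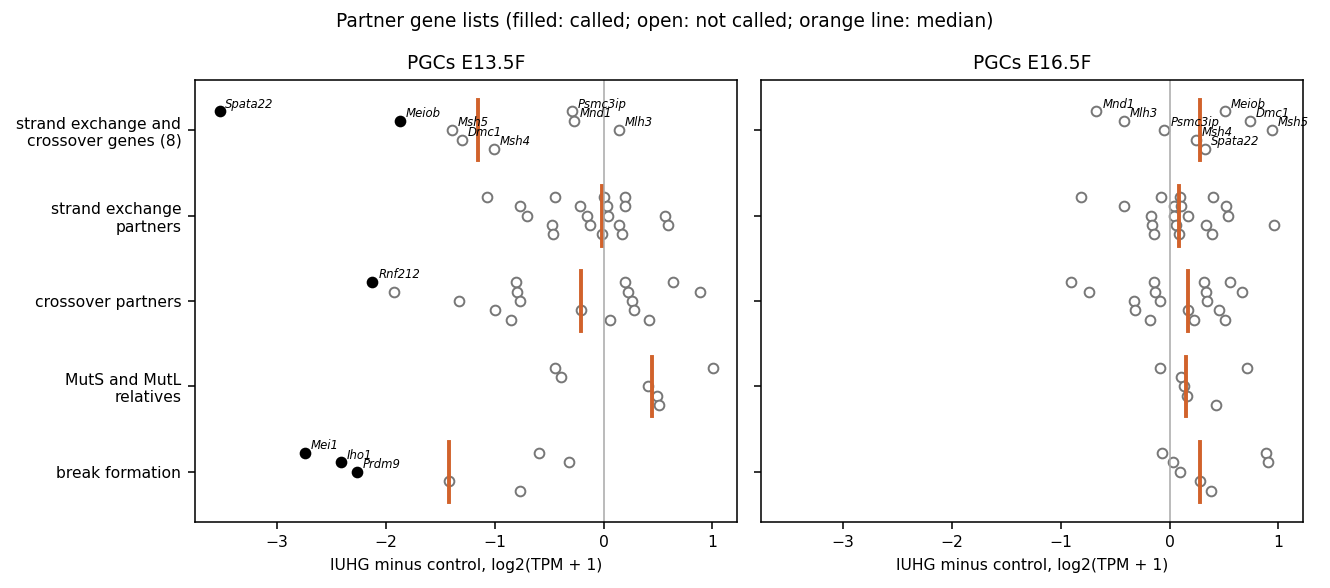
Difference between IUHG and control in log2(TPM + 1) for the 8 genes and for 4 lists of genes of neighbouring steps in E13.5 and E16.5 female PGCs. Points are genes (filled where called), and orange lines are list medians, which at E13.5 were -1.15 for the 8 genes, -0.014 for strand exchange partners and -1.42 for break formation genes.

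Markers of other cells were low but not the same in the groups of E13.5 female PGCs. All 5 Sertoli markers were found, with a summed TPM from 1.89 to 4.04 in controls and from 0.580 to 2.38 in IUHG libraries, Amh being at 0 in both groups and Sox9 at 0 in IUHG. The 6 pregranulosa markers summed to at most 20.6 TPM in controls and between 11.3 and 19.5 TPM in IUHG, and the 6 interstitial markers to between 9.39 and 14.3 TPM and between 5.36 and 8.52 TPM. The 5 endothelial markers, nearly all of it Pecam1, which germ cells also express, summed to between 52.1 and 70.4 TPM and between 89.2 and 209.7 TPM. The 6 blood markers summed to between 0.0629 and 34.6 TPM and between 0.657 and 20.7 TPM. Among pan-germ genes 1 of 7 was called lower, Mael (523 to 250 TPM, adjusted p = 0.0093), with a list median of -0.066. The pan-germ sum was between 3496 and 3832 TPM in controls and 3080, 3373 and 5151 TPM in IUHG, replicate 3 being the highest, and without that library the list median was -0.49. Their part in the result was not tested.

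At E16.5 in females 4 of the 8 genes, Dmc1, Meiob, Spata22 and Msh5, lay above controls in every IUHG library and 2, Mnd1 and Mlh3, lay below, where 14.9% of all tested genes lay above so and 14.1% below. No member was called by limma, where 0.736% of all tested genes were called in either direction. At an unadjusted p below 0.05, 4 members were higher and 1 lower, where 4273 of 18753 tested genes passed in either direction. Msh5 had 55.7, 66.8 and 62.2 TPM in controls and 125.6, 113.7 and 117.8 TPM in IUHG. The means differed 1.93 times (log2 difference 0.94, 95% interval 0.67 to 1.21, adjusted p = 0.004), just under the fold threshold. Dmc1 had 135.4, 146.8 and 152.6 TPM against 281.7, 207.4 and 241.3 TPM (log2 difference 0.74, 95% interval 0.46 to 1.01, adjusted p = 0.013). Meiob had 305.3, 282.3 and 317.2 TPM against 449.1, 394.7 and 444.9 TPM (log2 difference 0.51, 95% interval 0.31 to 0.71, adjusted p = 0.014). Spata22 had 119.2, 116.7 and 122.2 TPM against 88.4, 102.8 and 94.99 TPM in controls (log2 difference 0.32, adjusted p = 0.12).

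Of the other 4 genes at E16.5, Mnd1 and Mlh3 were lower in every IUHG library and Psmc3ip and Msh4 overlapped controls. Mnd1 had 135.1, 161.6 and 136.2 TPM in controls and 85.8, 83.6 and 101.4 TPM in IUHG females (log2 difference -0.67, 95% interval -0.95 to -0.39, adjusted p = 0.0196). Mlh3 had 23.1, 18.0 and 22.8 TPM against 16.53, 13.9 and 16.51 TPM (log2 difference -0.42, 95% interval -0.86 to 0.03, adjusted p = 0.24). Psmc3ip was at 220.2 ± 28.1 and 212.3 ± 13.7 TPM. Msh4 was spread in IUHG, with 92.3, 49.1 and 70.8 TPM against 52.2, 56.9 and 65.0 TPM in controls (log2 difference 0.24, 95% interval -0.24 to 0.72).

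No gene of the 19 strand exchange partners, 17 crossover partners, 6 MutS and MutL relatives and 7 break formation genes was called at E16.5 in females, and their medians were 0.084, 0.17, 0.15 and 0.28 against 0.039 over all genes. At an unadjusted p below 0.05, limma had 6, 4, 2 and 3 of them higher and 1, 3, 0 and 0 lower, in that order. Over all genes 4273 of 18753 passed that cut in either direction. The nearest were Firrm (log2 difference 0.54, adjusted p = 0.033), Tex11, a meiosis-specific crossover factor (237 to 381 TPM, adjusted p = 0.027), Pms2 (0.71, adjusted p = 0.057) and Prdm9 (74.4 to 139 TPM, adjusted p = 0.0058). The 6 interstitial markers summed to between 18.7 and 59.8 TPM in controls and between 75.4 and 109.9 TPM in IUHG at this stage, and the 6 blood markers to between 5.20 and 28.4 TPM and between 4.82 and 263.8 TPM, the highest being IUHG replicate 3. Genes listed above 0 numbered 25623, 25027 and 26048 in the control libraries and 21077, 22231 and 24451 in the IUHG libraries, without overlap. The part of these sums and numbers in the E16.5 female results, or in the stage comparison below, was not tested.

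Whether the IUHG difference in females itself changed between E13.5 and E16.5 was tested as a difference of differences. Dmc1, Meiob, Spata22 and Msh5 were called, 4 of 8 genes where 1.35% of all tested genes were called higher. The IUHG difference of Dmc1 was larger at E16.5 by 2.03 on the log2 scale (SE 0.22, adjusted p = 8e-05), that of Meiob by 2.38 (SE 0.20, adjusted p = 9.7e-06), that of Spata22 by 3.85 (SE 0.37, adjusted p = 3.7e-05) and that of Msh5 by 2.33 (SE 0.25, adjusted p = 6.7e-05). The same 4 genes were called after leaving out any 1 of the 12 libraries. Msh4 gave 1.25 (SE 0.44, adjusted p = 0.11). Mnd1 gave -0.40 (95% interval -0.92 to 0.12), Psmc3ip 0.24 (-0.22 to 0.71) and Mlh3 -0.56 (-1.29 to 0.18). Hsf2bp, Rnf212, Prdm9, Iho1 and Mei1 were called in the same direction.

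At E12.5 no member was called in IUHG PGCs, where 0.247% of all tested genes were called in either direction. At an unadjusted p below 0.05, where 2160 of 13770 tested genes passed in either direction, 1 of the 7 members tested was higher. That was Psmc3ip, with 70.7, 81.5 and 75.0 TPM in controls and 88.5, 89.0 and 97.4 TPM in IUHG (log2 difference 0.27, limma adjusted p = 0.23). Spata22 was not tested there, being listed at 0 in 5 of the 6 libraries and at 0.150 TPM in the other. The intervals of the other 6 genes spanned 0, for Dmc1 from -0.49 to 0.60 on the log2 scale. Between these groups the Y-linked sum was between 194.0 and 212.1 TPM in controls and between 129.6 and 153.7 TPM in IUHG, the interstitial sum between 5.14 and 6.42 TPM and between 0.391 and 1.38 TPM, and the pan-germ sum between 2546 and 2687 TPM and between 2244 and 2504 TPM. Their part in the result, or in the ratio of Psmc3ip to Mnd1 at E12.5, was not tested.

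In male PGCs no member passed both thresholds at either stage. At E13.5 the share of all tested genes called in either direction was 3.92%. At an unadjusted p below 0.05, 2 of the 7 members tested were higher and 1 lower. Over all genes 6351 of 14473 passed that cut in either direction. Mnd1 had 115.9, 120.5 and 118.4 TPM in controls and 80.4, 84.2 and 85.7 TPM in IUHG, a tight difference of -0.50 (95% interval -0.61 to -0.39, adjusted p = 9.8e-05) that stayed under the fold threshold. Psmc3ip went the other way, from 60.3, 59.3 and 63.5 TPM to 70.9, 75.8 and 71.3 TPM (log2 difference 0.25, adjusted p = 0.0089). Meiob had 2.07, 2.81 and 1.26 TPM against 4.87, 3.26 and 3.24 TPM (log2 difference 0.67, adjusted p = 0.037). In the same libraries the pan-germ sum was between 2175 and 2450 TPM in controls and between 1790 and 1987 TPM in IUHG, with 5 of 7 genes lower and 0 higher at an unadjusted p below 0.05. The interstitial sum was between 5.83 and 7.15 TPM and between 2.47 and 3.61 TPM, and the Y-linked sum between 150.8 and 182.8 TPM and between 116.1 and 119.6 TPM. Their part in the result was not tested. At E16.5 the share of all tested genes called was 0.201%. At an unadjusted p below 0.05, 1 member was higher and 1 lower, where 5003 of 20945 tested genes passed in either direction. Mnd1 had 183.0, 160.8 and 171.0 TPM against 146.1, 133.5 and 126.3 TPM (log2 difference -0.34, adjusted p = 0.038), and Msh5 had 3.52, 4.11 and 3.86 TPM against 5.22, 5.35 and 6.12 TPM (log2 difference 0.44, adjusted p = 0.11).

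The IUHG difference at E13.5 was lower in females than in males for Dmc1, Meiob, Spata22 and Msh5, 4 of 8 genes where 2.00% of all tested genes were called lower. The difference of differences was -1.38 for Dmc1 (SE 0.22, adjusted p = 0.0024), -2.54 for Meiob (SE 0.30, adjusted p = 0.00031), -3.59 for Spata22 (SE 0.39, adjusted p = 0.00018) and -1.33 for Msh5 (SE 0.25, adjusted p = 0.0064). Leaving out 1 of the 12 libraries gave between 2 and 5 calls, with only Meiob and Spata22 left without male control replicate 1 or 3 or male IUHG replicate 1, and Msh4 added without female IUHG replicate 3. For Spata22 the value restates the female difference (-3.53), since males had 0 TPM in every control library and 0, 0.151 and 0 TPM in IUHG, so that no fall was possible there and the gene was tested through its level in females. Male controls had 2.05 TPM of Meiob, 3.67 TPM of Msh5 and 7.72 TPM of Dmc1 on average. These levels lie near the floor of the scale, where log2(TPM + 1) compresses a fall. At E16.5 no member was called in the difference of differences between the sexes, where 1.18% of all tested genes were called in either direction. At an unadjusted p below 0.05, 2 members were higher and 2 lower, where 4677 of 24051 tested genes passed in either direction. Dmc1 had the smallest adjusted p of the members (0.97, SE 0.20, limma adjusted p = 0.022). These comparisons and the stage comparison share the E13.5 or E16.5 female libraries.

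Partners of a complex did not always move together. The ratio of TPM within a library does not depend on how libraries were scaled. These ratios were chosen after the values were seen, and with 3 libraries against 3 the exact permutation test (two-sided) cannot give a p below 0.1. How often other pairs of genes separate so was not computed, so the separations have no background to be set against. Psmc3ip over Mnd1 was higher in every IUHG library than in every control library at E12.5, in E13.5 males and in E16.5 females and males (exact p = 0.1 in each). In E13.5 males it was 0.521, 0.492 and 0.536 in controls and 0.883, 0.900 and 0.832 in IUHG. In E16.5 females it was 1.87, 1.29 and 1.47 against 2.45, 2.72 and 1.97. In E13.5 females, where both genes lay a little lower, the ratio was 0.616 ± 0.040 in controls and 0.607 ± 0.030 in IUHG (exact p = 0.7).

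Dmc1 over Mnd1 separated in opposite directions in the female groups. In E13.5 females it was 0.712, 0.592 and 0.772 in controls and 0.262, 0.291 and 0.487 in IUHG (exact p = 0.1). In E16.5 females it was 1.00, 0.908 and 1.12 in controls and 3.28, 2.48 and 2.38 in IUHG (exact p = 0.1). In E13.5 males it was higher in IUHG, at 0.0652 ± 0.0084 in controls and 0.0993 ± 0.0178 in IUHG (exact p = 0.1). Msh5 over Msh4 was higher in IUHG at E16.5, both in females (1.07 ± 0.11 against 1.78 ± 0.49) and in males (0.741 ± 0.031 against 1.25 ± 0.31), without overlap of libraries (exact p = 0.1 in each). In E13.5 female gonads it went the other way, with 3.82, 2.99 and 4.47 in controls and 2.12, 2.23 and 2.57 in IUHG (exact p = 0.1), and in PGCs of E12.5 and E13.5 the groups overlapped. Meiob over Spata22 at E16.5 in females overlapped between the groups, at 3.18 ± 0.38 and 3.597 ± 0.197 (exact p = 0.2).

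**Figure D4:**
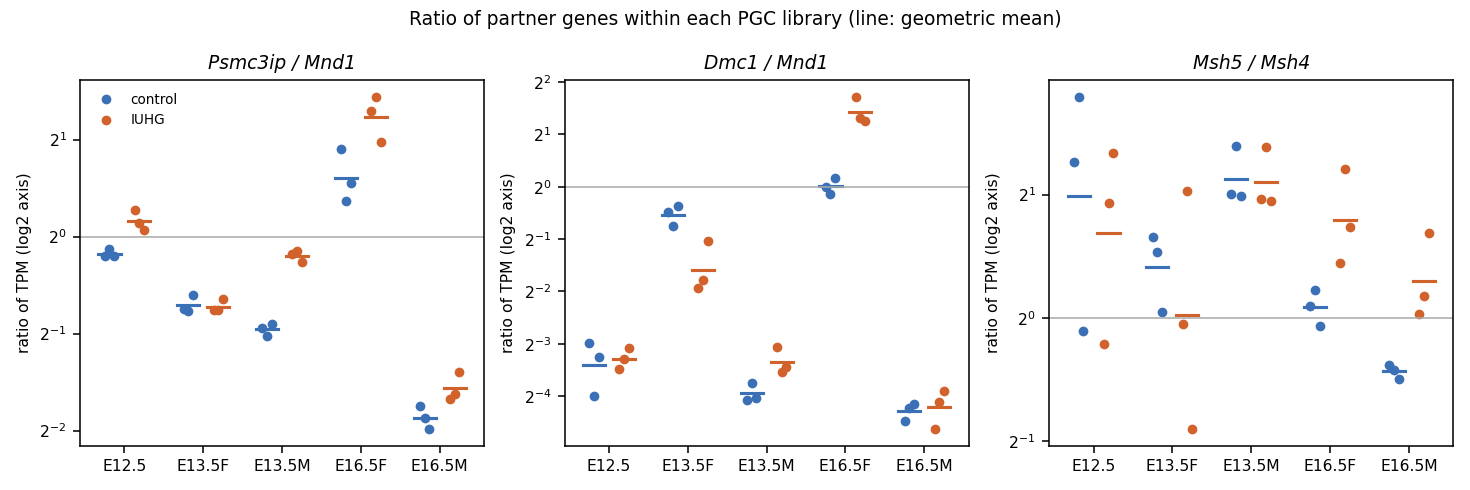
Ratio of TPM of Psmc3ip to Mnd1, of Dmc1 to Mnd1 and of Msh5 to Msh4 in each PGC library by stage and sex, on a log2 axis, with lines at the geometric mean of 3 libraries. Psmc3ip over Mnd1 lies higher in IUHG (orange) than in control (blue) without overlap in 4 of the 5 pairs of groups, all but E13.5 females. No share over other pairs of genes was computed.

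In whole E13.5 female gonads, where germ cells are a minority, no member was called in IUHG by limma, where 0.612% of all tested genes were called in either direction. At an unadjusted p below 0.05, 3 members were lower and 0 higher, where 3607 of 18150 tested genes passed in either direction. In these 3 genes, Meiob, Spata22 and Msh5, every IUHG library was below every control library, where 11.3% of all tested genes were so. Spata22 (chr11:73329741-73346044, plus strand; the listed gonad spans fit GRCm38) had 9.17, 11.6 and 7.84 TPM in controls and 6.27, 3.56 and 3.94 TPM in IUHG (log2 difference -0.93, 95% interval -1.40 to -0.46, adjusted p = 0.056). Meiob (chr17:24804289-24839788, plus strand) had 7.91, 9.79 and 8.46 TPM against 6.21, 5.71 and 3.45 TPM (log2 difference -0.69, 95% interval -1.13 to -0.26, adjusted p = 0.098). Msh5 (chr17:35028605-35046745, minus strand) had 15.1, 19.5 and 16.6 TPM against 12.7, 9.52 and 10.3 TPM (log2 difference -0.61, 95% interval -0.91 to -0.31, adjusted p = 0.054). In bulk gonads fewer cells of a type and less RNA per cell cannot be told apart.

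The other 5 genes overlapped between the gonad groups. Dmc1 had 17.0, 27.2 and 20.2 TPM against 22.0, 19.7 and 14.2 TPM (log2 difference -0.19, 95% interval -0.63 to 0.25). Psmc3ip was at 26.4 ± 1.2 and 27.9 ± 1.5 TPM, Mnd1 at 11.2 ± 1.8 and 13.6 ± 2.2 TPM, Mlh3 at 11.3 ± 0.4 and 11.1 ± 0.2 TPM, and Msh4 at 4.73 ± 1.55 and 4.77 ± 1.08 TPM. Without the control library that held Y-linked transcripts (summed TPM up to 51.3, against 0 in every IUHG library) the differences were -0.95 for Spata22, -0.75 for Meiob and -0.69 for Msh5 (adjusted p = 0.095, 0.13 and 0.056). No gene of the 4 lists was called in gonads by limma. At an unadjusted p below 0.05, 6, 1, 3 and 0 were higher and 2, 3, 0 and 3 lower, in the order used above. Over all genes 3607 of 18150 passed that cut in either direction. Without that control library none was called either, with 5, 1, 3 and 0 higher and 1, 2, 0 and 3 lower. The gene with the lowest p over all libraries was Rpa2 among the strand exchange partners (log2 difference 0.42, adjusted p = 0.019), Exo1 among the crossover partners (0.35, adjusted p = 0.062) and Prdm9 among the break formation genes (-0.91, adjusted p = 0.071).

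Germ cell genes and markers of other cells also moved between the gonad groups. The 7 pan-germ genes summed to between 363.7 and 452.3 TPM in controls and between 432.5 and 597.9 TPM in IUHG. The 6 blood markers summed to between 8900 and 11220 TPM and between 5502 and 6635 TPM, with 3 called lower, and the 6 interstitial markers to between 1422 and 1522 TPM and between 1047 and 1141 TPM. Without the control library that held Y-linked transcripts the pan-germ sums of controls were 452.3 and 413.2 TPM, the blood sums 8900 and 10340 TPM, with 2 called lower, and the interstitial sums 1522 and 1422 TPM. Their part in the results was not tested. Set against the mean of the 7 pan-germ genes in each library, 4 of the 8 members lay below in every IUHG library, namely Dmc1, Meiob, Spata22 and Msh5, where 14.0% of all tested genes did so and the median of all tested genes was -0.22 on this scale (exact permutation p = 0.1 for each, two-sided, the smallest that 3 libraries against 3 allow). The relative level of Meiob was -2.16, -2.10 and -2.13 on the log2 scale in controls and -2.99, -2.97 and -3.17 in IUHG, that of Spata22 was lower by 1.16, that of Msh5 by 0.83 and that of Dmc1 by 0.42. For Mnd1 the relative level differed by 0.03. With Ddx4 alone as the reference the same 4 members lay below, where 15.2% of all tested genes did. Without the control library that held Y-linked transcripts the same 4 lay below on either reference (16.3% and 15.8% of all tested genes), with differences against the pan-germ mean of -0.93 for Meiob, -1.13 for Spata22, -0.87 for Msh5, -0.52 for Dmc1 and, for Mnd1, 0.19.

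**Figure D5:**
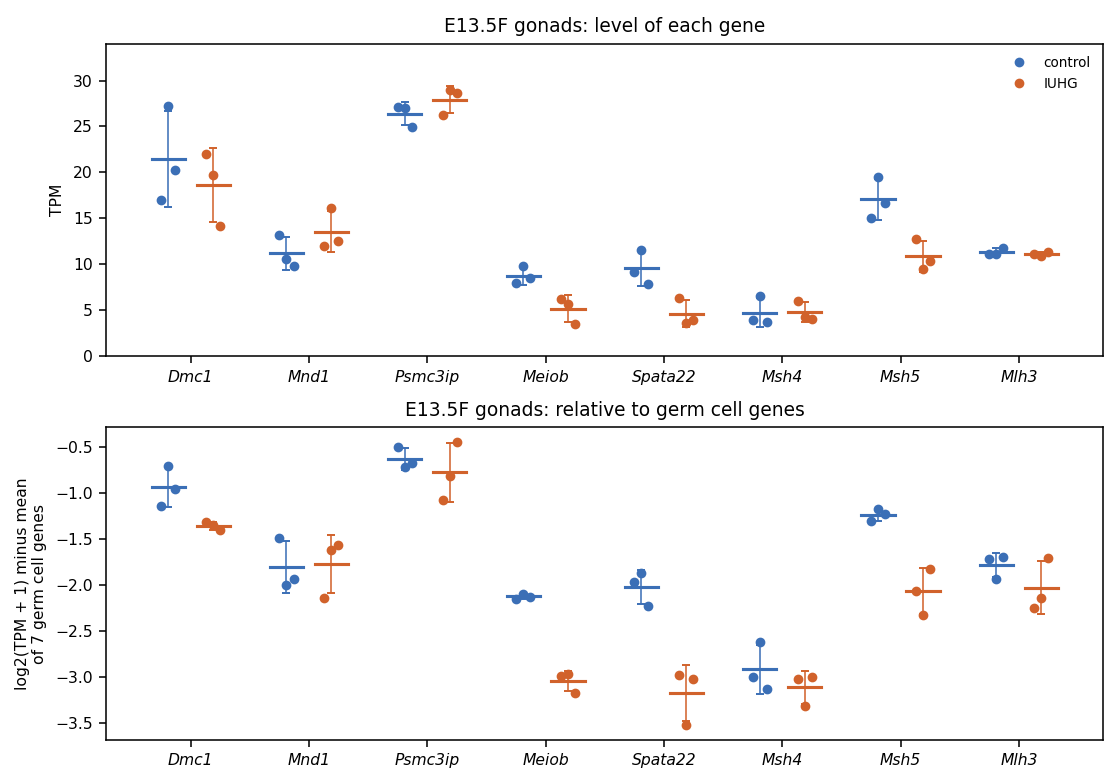
The 8 genes in E13.5 female gonads, as TPM (top, axis from 0) and as log2(TPM + 1) minus the mean of 7 pan-germ genes of the same library (bottom), with 3 libraries per group as points, means as lines and SD as bars. Meiob, Spata22 and Msh5 do not overlap between control (blue) and IUHG (orange) in either panel, and Dmc1 does not overlap in the lower panel.

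Among themselves 7 members had similar profiles and Mnd1 stood apart. Over the 10 PGC group means of log2(TPM + 1), Pearson's r between pairs of Dmc1, Meiob, Spata22, Msh4 and Msh5 ran from 0.818 (Dmc1 and Spata22) to 0.980 (Dmc1 and Meiob). Mlh3 had r between 0.863 and 0.943 with these 5 genes, inside that range, and Psmc3ip between 0.683 and 0.83. Mnd1 had r between -0.231 (with its partner Psmc3ip) and 0.403 (with Spata22). With the mean profile of the 8 genes, which includes the gene compared and so raises r, Msh4 had r = 0.995 and Mnd1 r = 0.314. Among 25134 other genes with a mean of at least 1 TPM in a PGC group, those most like the mean profile were Gm15246 (r = 0.996), Taf7l2 (0.994), BC022960 (0.991), Hs3st3a1 (0.991) and Sycp3 (0.991), a structural protein of the chromosome axis. Sycp3 had group means of 1445 TPM in control and 335.5 TPM in IUHG females at E13.5, and of 4769 and 6356 TPM at E16.5. These correlations describe 10 groups that share stage and sex, and they carry no test.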

How the data were processed

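Per the deposited tables, the authors gave TPM, FPKM and coverage for each gene and library as StringTie writes them. TPM was the main value, the deposited FPKM values served as an alternative, and the ratio of the deposited coverage to FPKM gave the aligned bases. Per the study's methods, gonad reads were trimmed with Trim Galore and aligned to mm9 with HISAT2, whereas PGC reads were aligned to Mm39 with STAR. The labels name STAR and mm39 for all libraries, and the gene spans listed for gonads are those of GRCm38. The 2 tables were made separately, so tests stayed within a table. Read counts were not used here.

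Values were tested as log2(TPM + 1) with limma 3.58.1 (R 4.3.3, trended variance, two-sided), only on the groups compared, where a gene's mean TPM reached 1 in a compared group, with Benjamini-Hochberg adjustment over all genes tested. Intervals are 95% intervals of limma. Ratios within a library and levels relative to germ cell genes were tested with exact permutation tests. On simulated data limma recovered between 30% and 96.5% of genes changed by 2 on the log2 scale, depending on the comparison, and called at most 6 unchanged genes. The members and the lists of partner genes were chosen with earlier results of these data known. All members are named. Of each list, up to 4 called genes with the lowest p are named, or up to 2 where none was called, besides the 5 genes most like the members. Alternatives were leaving out each library, a replicate block, 1 fit over all PGC libraries, another threshold on adjusted p, FPKM in place of TPM, quantile normalization or median-of-ratios scaling, no filter on low values, and 0.1 as the pseudocount. Counts on lists without 1 library that stood apart, the genes named from them, and shares of all genes relative to germ cell genes, were added after the data were seen. The symbols Spo16, Top6bl and Gcna were not found in the tables. Promoter sequences are from RefSeq. Some genes of the lists and markers are not reported here by name.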

Additional observations from a re-analysis of the deposited data

Results flagged for a closer look

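The IUHG difference differed between groups for 4 of the 8 genes by the tests of the difference of differences in limma, adjusted over all genes. Between female and male PGCs of E13.5 these differences, female minus male, were -1.38 for Dmc1, -2.54 for Meiob, -3.59 for Spata22 and -1.33 for Msh5 on the log2 scale. Spata22 was at 0 in all male control libraries, so it could not fall in males, and its value restates the female difference. Meiob, Msh5 and Dmc1 stood near the floor of the scale in male controls (2.05, 3.67 and 7.72 TPM on average). Between E16.5 and E13.5 female PGCs the differences of differences were 2.03 for Dmc1, 2.38 for Meiob, 3.85 for Spata22 and 2.33 for Msh5. Both sets share the E13.5 female libraries, 3 control and 3 IUHG.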

How the results depend on the processing

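In E13.5 female PGCs the 2 members called lower in IUHG became 4 on FPKM, 1 with a pseudocount of 0.1, 0 without a filter on low values, 5 in a fit over all PGC libraries and 4 at an adjusted p below 0.05, with between 0 and 5 when a library was left out. Over all genes 85 were called there, and between 1 and 1358 under the alternatives. Elsewhere the 3 members called in E16.5 against E13.5 males became 1 with quantile normalization. Only Meiob and Spata22 were called there on FPKM and after median-of-ratios scaling. The 0 members in the difference of differences between the sexes at E16.5 became 1 at an adjusted p below 0.05. Leaving out a library gave between 0 and 1 in E13.5 males against E12.5, and between 2 and 5 in the difference of differences between the sexes at E13.5. The causes were not tested, except that more genes are tested without a filter. With the replicate block 3 members were called in E13.5 female PGCs. Smaller changes of other counts of members, if any, are not listed here. Numbers did not pair the libraries, since deviations from group means correlated between -0.0846 and 0.126 for equal numbers, and only at E13.5 in males did all 3 libraries correlate best with their own number, a hint from the data and not from the design.

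Of the values for single genes, 1682 kept direction and call under the alternatives, 28 lost a call, 16 gained one and 48 changed sign. No sign change concerned a gene called in either fit. On FPKM they were Meiob at E12.5 (-0.018), Mlh3 in E13.5 females (-0.0050), Mnd1 in E16.5 against E13.5 females (-0.044) and Dmc1 in E13.5 males against E12.5 (0.026). With median-of-ratios scaling they were Meiob at E12.5 (-0.0040), Mlh3 in E13.5 females (-0.0016), Psmc3ip in E13.5 females against E12.5 (-0.17), Mnd1 in E16.5 against E13.5 females (-0.16), Dmc1 and Msh5 in E16.5 against E13.5 males (-0.16 and -0.25) and Mnd1 in E13.5 females against males (-0.15). Psmc3ip in the difference of differences between the sexes at E16.5 changed sign as well (0.031). With quantile normalization they were Mlh3 in E13.5 females (-0.040), Dmc1 and Msh5 in E16.5 against E13.5 males (-0.30 and -0.76) and Mnd1 in E13.5 females against males (-0.033). Psmc3ip in the difference of differences between the sexes at E16.5 changed sign here too (0.014).

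The other sign changes came from leaving out a library. The IUHG differences then ran from -0.12 to 0.24 for Msh4 and from -0.039 to 0.0038 for Mlh3 in gonads. At E12.5 they ran from -0.18 to 0.22 for Dmc1, -0.15 to 0.016 for Mnd1, -0.18 to 0.22 for Meiob, -0.13 to 0.21 for Msh5 and -0.052 to 0.22 for Mlh3. They ran from -0.0085 to 0.28 for Mlh3 in E13.5 females, and in E13.5 males from -0.018 to 0.19 for Dmc1, -0.081 to 0.040 for Msh4 and -0.15 to 0.039 for Msh5. At E16.5 they ran from -0.11 to 0.054 for Psmc3ip in females, and in males from -0.097 to 0.066 for Psmc3ip and -0.16 to 0.22 for Spata22. Between control males the range was -0.30 to 0.086 for Dmc1 (E13.5 against E12.5), -0.020 to 0.097 for Msh5 and -0.18 to 0.025 for Mlh3 (E16.5 against E13.5). In the difference of differences between the sexes at E16.5 the range was -0.11 to 0.093 for Psmc3ip.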
